A study of Lens culinaris with 18 samples.

Results

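Vicilins are the trimeric 7S globulins that legume seeds lay down in protein storage vacuoles of the embryo and draw on after germination, and the lentil allergen Len c1 derives from them. They are encoded by families of related genes that are switched on during seed filling. The 4 vicilin genes described here are Lcu.2RBY.3g008770, Lcu.2RBY.3g014420, Lcu.2RBY.3g014440 and Lcu.2RBY.3g014450, all numbered on chromosome 3. The rule that picks them uses their identifiers and no measured value, and they are 4 of the 16 vicilin genes that the study listed and 4 of the 58243 genes counted. The basis on which the study listed them is not stated. By identifier order Lcu.2RBY.3g014420, Lcu.2RBY.3g014440 and Lcu.2RBY.3g014450 are near neighbours, with Lcu.2RBY.3g014430 between the first and the second, while Lcu.2RBY.3g008770 lies apart. All are known here as vicilin genes only, and no role is given to a single copy.

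M11 is the natural lentil accession CN 45073, which carries the mutated allele of LcLTP3b, the gene of the lipid transfer protein allergen Len c3. It was set against the cultivars CDC Redmoon and CDC Gold, which are not otherwise matched to it, so that allele and the rest of the line cannot be told apart. Embryos were dissected from mature green seeds and sequenced apart from the rest of the seed, the seed coat with the endosperm still attached, called seed coat here. Each line and tissue had 3 libraries, which made 18 libraries in 6 groups. It is not stated whether the 3 libraries stand for separate plants, so p-values measure the spread between these libraries, which may be technical. Embryo libraries held 3270275 to 22958727 counts, the lowest in a Gold library, and seed coat libraries 5907695 to 24309401.

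The cultivar labels did not behave alike in the tissues. Levels are in CPM, counts set to a common library total. A gene was called on at 2 CPM or more in all libraries of 1 cultivar and off at 0.1 CPM or less in all of the other. Of the genes that met this in both tissues, 116 were on under one label in embryos and under the other label in seed coat, and 0 kept their label. Groups are therefore named throughout by the labels of their libraries. Comparisons between the tissues of a cultivar are given as labelled and with Redmoon and Gold exchanged in seed coat. Lists of genes richer in embryo than in seed coat were drawn up as labelled only.

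The 4 genes were embryo genes with the same order of lines within a tissue. In embryos every gene was lowest in M11, higher in Redmoon and highest in Gold (for Lcu.2RBY.3g014420 the order of Redmoon and Gold turned round when library totals alone set the scale), while in seed coat Redmoon was highest. On the scale that joins all libraries (CPM after TMM scaling, which sets the bulk of genes level between libraries), Lcu.2RBY.3g008770 averaged 24550 ± 486 in M11 embryos, 99808 ± 2317 in Redmoon embryos and 156470 ± 11471 in Gold embryos (SD, n = 3 each). Among seed coats its level was 297 ± 18.2 in M11, 1250 ± 73.8 in Redmoon and 263 ± 23.9 in Gold. For all 4 genes the levels ran, from high to low, in the order Gold embryo, Redmoon embryo, M11 embryo, Redmoon seed coat, M11 seed coat and Gold seed coat. Neighbours in that order did not overlap for 3 of the genes, and for Lcu.2RBY.3g008770 the M11 and Gold seed coats, the last neighbours, did. The smallest step was likewise between these seed coat groups for Lcu.2RBY.3g008770, with an M11 mean 1.13 times the Gold mean. How often other genes kept these groups apart was not counted. Differences between lines were common, with 27.4% to 37.2% of tested genes called in each direction by the test given below. Gene lengths were not used here, so levels are compared between groups and never between genes.

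**Figure D1:**
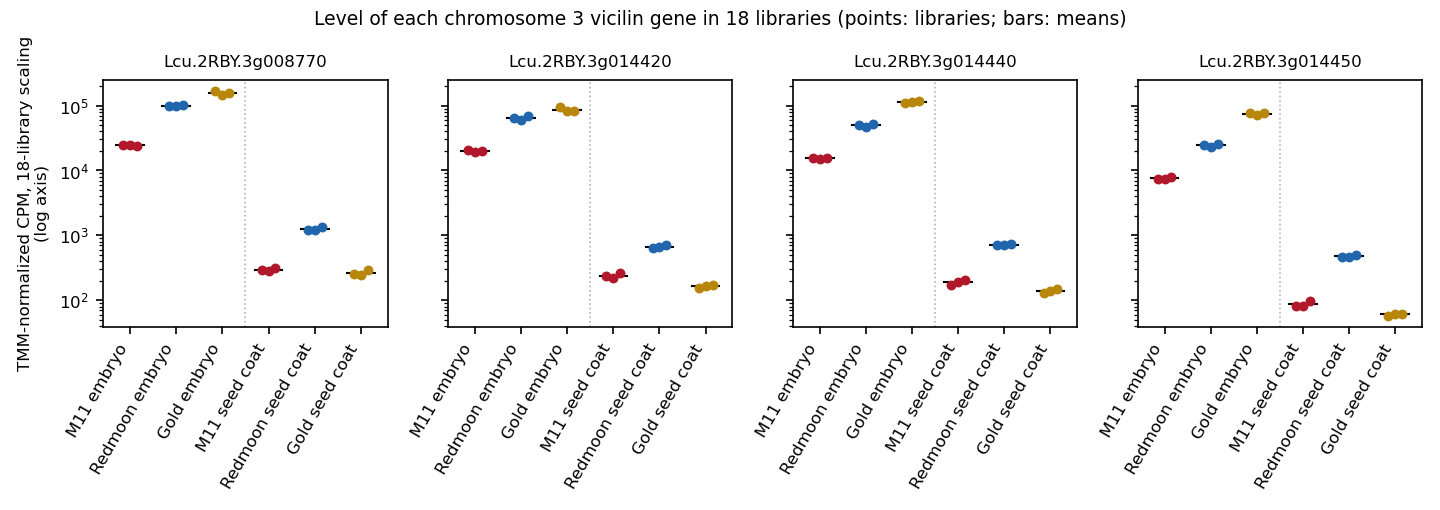
Level of each gene in 18 libraries, as TMM-normalized CPM on a log axis; points are libraries, coloured by line, and bars are means of 3. Embryos stand left of the dotted line and seed coats right of it, and each gene is lowest in M11 among embryos and highest in Redmoon among seed coats. With library totals alone, Lcu.2RBY.3g014420 was higher in Redmoon than in Gold embryos by 0.16 on the log2 scale.

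Together the 4 genes took 7.44% ± 0.0844 of all counts in M11 embryos, 17.02% ± 0.701 in Redmoon embryos and 20.6% ± 0.654 in Gold embryos (SD, n = 3 each). They took 0.120% ± 0.00837 in M11 seed coats, 0.412% ± 0.0182 in Redmoon seed coats and 0.0849% ± 0.00580 in Gold seed coats. Such bulk values cannot tell fewer cells of a type from less RNA per cell.

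Set against Redmoon embryos, M11 embryos had lower levels of all 4 genes, by close to the same factor for the 3 neighbours. The test was edgeR's quasi-likelihood test, fitted to the 9 libraries of a tissue, with p-values adjusted by Benjamini and Hochberg's method across every gene in the fit and a gene called under 0.05. Of 18623 genes tested, 32.1% were called lower and 31.5% higher in M11, and 4 of the 4 vicilin genes were. The median log2 fold change (M11 minus Redmoon) was -1.71 for the 4 genes, beside a value close to 0 for all genes.

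Lcu.2RBY.3g014420 had 14546, 13879 and 13996 TMM-normalized CPM (scaled within the tissue) in M11 embryos, against 46620, 43308 and 49342 in Redmoon embryos. Lcu.2RBY.3g014440 had 11238, 10724 and 10955 in M11 embryos, against 35543, 33884 and 37646 in Redmoon embryos. Lcu.2RBY.3g014450 had 5363, 5276 and 5564 in M11 embryos, against 17759, 16564 and 18493 in Redmoon embryos. The groups were far apart for each of these neighbours, whose log2 fold changes were -1.72, -1.70 and -1.70, with standard errors of 0.07, 0.06 and 0.06 (edgeR adjusted p of at most 7.82e-17). Lcu.2RBY.3g008770 had 17936, 17313 and 17263 in M11 embryos, against 70779, 70356 and 73727 in Redmoon embryos. It was the gene with the largest difference of the 4, a log2 fold change of -2.03 (standard error 0.06, edgeR adjusted p = 4.12e-19).

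Set against Gold embryos, M11 embryos again had less of all 4 genes, but by unlike factors. Here 37.1% of all tested genes were called lower in M11 and 36.9% higher, and again 4 of the 4 vicilin genes were lower, with a median log2 fold change of -2.82 beside 0.01 for all genes. The Gold values of Lcu.2RBY.3g014420 were 70797, 59165 and 61736, those of Lcu.2RBY.3g014440 were 80511, 81350 and 86680, and those of Lcu.2RBY.3g014450 were 55856, 52437 and 56698. No Gold library came near an M11 library for any of them. The log2 fold change (M11 minus Gold) was -2.18 for Lcu.2RBY.3g014420 (standard error 0.07), -2.92 for Lcu.2RBY.3g014440 (0.06) and -3.35 for Lcu.2RBY.3g014450 (0.07), with edgeR adjusted p of at most 3.03e-19. Lcu.2RBY.3g008770 had 123982, 106929 and 115043 in Gold embryos, and a log2 fold change of -2.72 (standard error 0.06, edgeR adjusted p = 4.66e-22). The comparisons with Redmoon and with Gold share the M11 libraries, so they are given side by side only.

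Redmoon embryos were below Gold embryos for all 4 genes, where 27.4% of all tested genes were called lower and 27.7% higher. The log2 fold changes (Redmoon minus Gold) were -0.46 for Lcu.2RBY.3g014420, -0.69 for Lcu.2RBY.3g008770, -1.21 for Lcu.2RBY.3g014440 and -1.64 for Lcu.2RBY.3g014450 (edgeR adjusted p of at most 2.37e-06). Scaling bore on this comparison. With library totals alone the median of all genes moved to 0.62, and called lower were Lcu.2RBY.3g014440 and Lcu.2RBY.3g014450, at -0.60 and -1.03. Lcu.2RBY.3g008770 was then at -0.07 and not called, and Lcu.2RBY.3g014420 was called higher in Redmoon, at 0.16. Of all 18623 tested genes, 12134 were called higher and 1827 lower with that scaling. Measured from the all-gene median of that scaling, the 4 values were -0.46, -0.69, -1.22 and -1.65 in the order first given. For M11 embryos, library totals moved the median of all genes to 0.64 against Redmoon and 1.26 against Gold, and all 4 genes stayed lower in M11, by -1.39 to -1.06 and -2.09 to -0.92. Of 18623 genes, 2153 were then called lower and 13001 higher against Redmoon. Against Gold 2040 were called lower and 14740 higher.

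**Figure D2:**
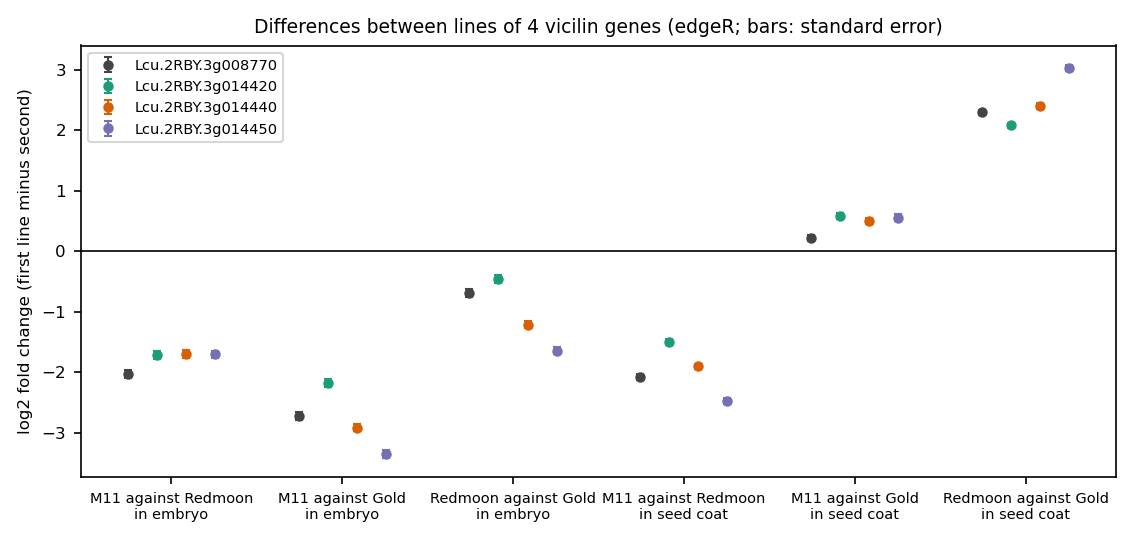
Log2 fold change of the 4 genes between lines, embryos in the 3 groups of points on the left and seed coats in those on the right, the line named first minus the line named second; points are edgeR estimates and bars their standard errors. The 3 neighbours coincide at about -1.70 for M11 against Redmoon in embryo and spread from -2.18 to -3.35 for M11 against Gold in embryo; for Redmoon against Gold in embryo the sign of Lcu.2RBY.3g014420 turned round, to 0.16, with library totals alone.

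In seed coat, M11 was below Redmoon and slightly above Gold for all 4 genes. Against Redmoon 34.2% of 19386 tested genes were called lower in M11 and 37.2% higher, and 4 of the 4 genes were lower, the median log2 fold change being -1.99 beside 0.04 for all genes. Lcu.2RBY.3g014450 had 113, 113 and 134 TMM-normalized CPM in M11 seed coats, against 649, 675 and 688 in Redmoon seed coats. It had the largest difference, with a log2 fold change of -2.48 (standard error 0.05, edgeR adjusted p = 2.55e-47). Lcu.2RBY.3g014420 had the smallest, with 326, 310 and 360 in M11 seed coats, against 890, 941 and 989 in Redmoon seed coats, a log2 fold change of -1.502 (standard error 0.05, edgeR adjusted p = 2.72e-37). The values for Lcu.2RBY.3g008770 and Lcu.2RBY.3g014440 were -2.08 and -1.90.

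Against Gold seed coats 35.9% of tested genes were called higher in M11 and 36.9% lower, and 4 of the 4 genes were higher, the median log2 fold change being 0.53 beside -0.01 for all genes. Lcu.2RBY.3g014420 had 326, 310 and 360 in M11 seed coats, against 206, 224 and 234 in Gold seed coats. It rose most of the 4, by 0.58 on the log2 scale (standard error 0.05, edgeR adjusted p = 2.13e-17). Lcu.2RBY.3g014450 rose by 0.56 and Lcu.2RBY.3g014440 by 0.50. Lcu.2RBY.3g008770 had 410, 393 and 441 in M11 seed coats, against 339, 338 and 392 in Gold seed coats. Its groups came closest, the lowest M11 library standing just above the highest Gold library, and it rose by 0.22 on the log2 scale (standard error 0.05, edgeR adjusted p = 3.24e-05).

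Redmoon seed coats exceeded Gold seed coats in all 4 genes, where 32.6% of tested genes were called higher and 33.8% lower. The log2 fold change (Redmoon minus Gold) was 2.30 for Lcu.2RBY.3g008770, 2.09 for Lcu.2RBY.3g014420, 2.41 for Lcu.2RBY.3g014440 and 3.04 for Lcu.2RBY.3g014450 (standard errors of at most 0.05, edgeR adjusted p of at most 1.40e-45). This was the reverse of the embryo direction between the same labels.

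Other embryo-rich genes moved with the 4 genes in seed coat, but not in every comparison of embryos. Genes outside the 16 vicilin genes were taken whose embryo level was 32 times the seed coat level or more (CPM plus 0.5) in the line left out of the comparison. For M11 against Redmoon that line was Gold, and for M11 against Gold it was Redmoon. Those lists rest on the cultivar labels as given, and no version with exchanged labels was made. Between M11 and Redmoon seed coats, 118 of 164 such genes were lower and 26 higher, the median log2 fold change being -2.19 beside -1.99 for the 4 vicilin genes. Between M11 and Gold seed coats, 59 of 88 were higher and 14 lower, with a median of 1.38 beside 0.53. Between Redmoon and Gold seed coats, 58 of 82 were higher and 9 lower, with a median of 1.25 beside 2.35. Between M11 and Redmoon embryos, 126 of 175 were lower and 38 higher, with a median of -1.34 beside -1.71 for the 4 vicilin genes. Between M11 and Gold embryos the direction was the opposite of theirs, with 71 of 105 higher and 28 lower, a median of 0.71 beside -2.82. Between Redmoon and Gold embryos 73 of 131 were higher and 45 lower, a median of 0.34 beside -0.95. Whether embryo tissue in the seed coat samples had a part in these differences was not tested. Over all genes, the medians of these comparisons lay between -0.02 and 0.04. Of all tested genes, 27.4% to 37.2% were called in each direction.

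Of the other 12 vicilin genes, most moved with the 4 in embryos. In M11 embryos 9 of 12 were lower and 3 higher than in Redmoon (median log2 fold change -1.46), and 8 were lower and 3 higher than in Gold, with a median of -2.41. Higher than in both cultivars were Lcu.2RBY.5g065750 and Lcu.2RBY.6g038600. In seed coat 11 of the 12 could be tested. Against Redmoon 10 of them were lower in M11 and 1 was higher, with a median of -2.13. Against Gold 3 were higher and 7 lower, with a median of -0.37, whereas the 4 chromosome 3 genes were all higher. The 3 that rose with them were Lcu.2RBY.1g038070 at 1.09, Lcu.2RBY.6g038570 at 0.79 and Lcu.2RBY.7g031050 at 2.56. In these comparisons of M11, 32.1% to 37.1% of all tested genes were called lower and 31.5% to 37.2% higher.

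As a share of the counts on all 16 vicilin genes, which is a ratio within a library and needs no scaling between libraries, the 4 genes took 47.0% to 58.1% in the group means. The share was 53.2% ± 0.252 in M11 embryos, 49.8% ± 0.470 in Redmoon embryos and 58.1% ± 0.245 in Gold embryos (SD, n = 3 each). It was 57.1% ± 0.388 in M11 seed coats, 55.1% ± 0.155 in Redmoon seed coats and 47.0% ± 0.402 in Gold seed coats. The groups were apart in all 6 comparisons of lines within a tissue (two-sided exact permutation test, p = 0.1 each, the smallest that 3 libraries against 3 allow, and 0.1 after adjustment over the 6). M11 thus stood above Redmoon by 3.39 percentage points in embryos and 1.93 in seed coat. Against Gold it stood at -4.91 points in embryos and 10.1 points in seed coat. Redmoon against Gold was at -8.30 points in embryos and 8.15 in seed coat.

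The shares depended on which other vicilin genes were counted, in both tissues. Without Lcu.2RBY.6g038550 and Lcu.2RBY.7g031050 the embryo differences turned round, to -0.817 points for M11 against Redmoon, 2.03 for M11 against Gold and 2.85 for Redmoon against Gold. The seed coat differences kept their direction but changed in size, to 5.59 points for M11 against Redmoon, 6.71 for M11 against Gold and 1.12 for Redmoon against Gold. The vicilin cluster of chromosome 6 that holds Lcu.2RBY.6g038550 took 24.1% ± 0.410 of vicilin counts in M11 embryos, 31.0% ± 0.673 in Redmoon embryos and 9.48% ± 0.763 in Gold embryos. Its seed coat shares were 20.0% ± 0.442 in M11, 9.82% ± 0.352 in Redmoon and 27.7% ± 0.360 in Gold.

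Within the 4, the share of vicilin counts moved most for Lcu.2RBY.3g014450. It took 5.81%, 5.93% and 6.23% in M11 embryos, 5.21%, 4.98% and 5.17% in Redmoon embryos and 9.80%, 10.1% and 10.3% in Gold embryos. The seed coat libraries held 5.87%, 5.95% and 6.31% in M11, 8.55%, 8.52% and 8.35% in Redmoon and 4.61%, 4.65% and 4.35% in Gold. Gold libraries were thus high in embryos and low in seed coat, Redmoon libraries the other way, and M11 libraries lay between them in both tissues. Lcu.2RBY.3g008770 varied least in relative terms, with shares between 18.9% and 22.4% over all 18 libraries.

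**Figure D3:**
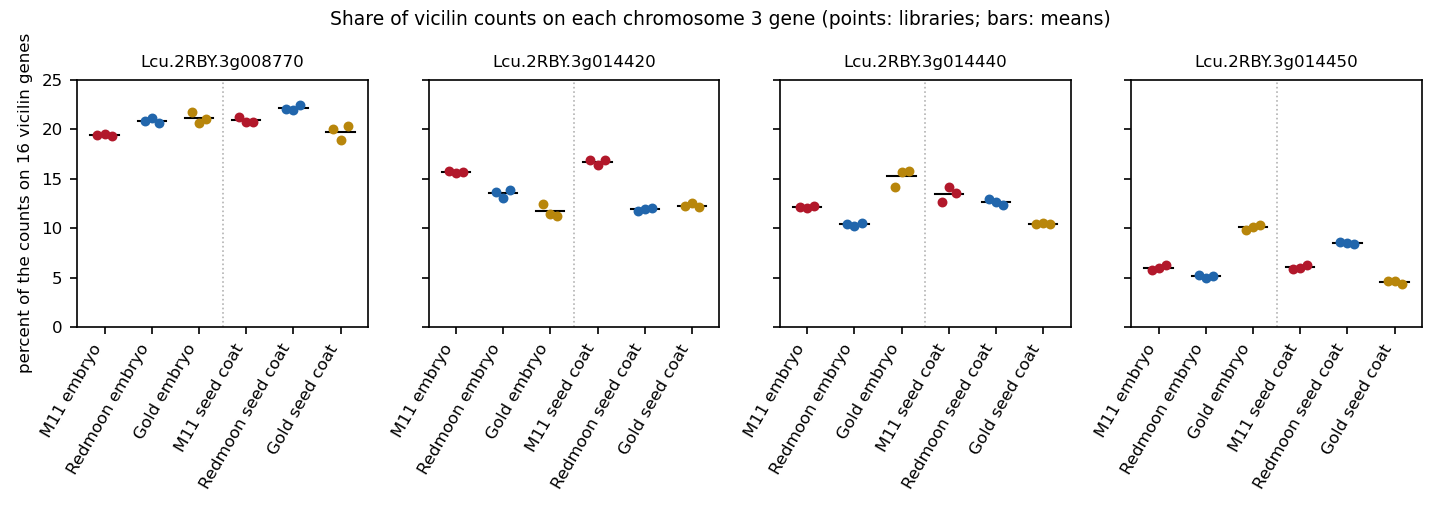
Percent of the counts on all 16 vicilin genes that fell on each of the 4 genes; points are libraries, coloured by line, and bars are means of 3, with embryos left and seed coats right of the dotted line. Lcu.2RBY.3g008770 stays between 18.9% and 22.4%, while Lcu.2RBY.3g014450 is near 10% in Gold embryos and near 8.5% in Redmoon seed coats and at 6.31% or less elsewhere.

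How closely the genes moved together was read from log2 ratios of their counts within each library. Between replicates, the pooled SD of such a ratio was 0.05 to 0.08 over the 6 pairs of genes, and that of a single gene's level was 0.08 to 0.10 on the log2 scale. Between groups, the means of a gene's level spanned 9.05 to 10.3 on the log2 scale, and those of a ratio 0.53 to 1.26. A ratio thus varied far less over the 6 groups than either of its genes, yet more than between replicates. The spans of the levels include the step between tissues, and within a tissue the contrast was smaller. Between M11 and Gold embryos the ratios differed by -1.18 to 0.55, beside -3.35 to -2.18 for the levels. Between M11 and Gold seed coats the ratios differed by -0.08 to 0.36, beside 0.22 to 0.58 for the levels. Pairs of other genes were not set beside these.

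Among the neighbours, the ratios set Gold embryos and Redmoon seed coats apart from the other 4 groups. The log2 ratio of Lcu.2RBY.3g014450 to Lcu.2RBY.3g014420 was -1.39 ± 0.05 in M11 embryos, -1.40 ± 0.02 in Redmoon embryos and -0.21 ± 0.11 in Gold embryos (SD, n = 3 each). In seed coat it was -1.47 ± 0.05 in M11, -0.49 ± 0.03 in Redmoon and -1.44 ± 0.04 in Gold. Means of the other 4 groups lay between -1.47 and -1.39. The ratio of Lcu.2RBY.3g014440 to Lcu.2RBY.3g014420 did the same, with 0.38 ± 0.17 in Gold embryos and 0.09 ± 0.05 in Redmoon seed coats, against -0.38 to -0.23 for the means of the other groups. Those 4 groups were not all alike. Redmoon embryos, at -0.38, did not overlap Gold seed coats, at -0.23, in this ratio. The ratio of Lcu.2RBY.3g014450 to Lcu.2RBY.3g014440 was -1.02 in M11 embryos and -1.15 in M11 seed coats, which did not overlap, and -1.02 in Redmoon embryos and -1.20 in Gold seed coats, which did not either.

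Of 36 tests of a ratio (6 pairs of genes, 3 comparisons of lines and 2 tissues), the groups were apart in 29. Each of these had p = 0.1 by the two-sided exact permutation test, the smallest possible, or 0.124 after adjustment over the 36. Against Redmoon embryos, M11 embryos differed in the 3 ratios that contain Lcu.2RBY.3g008770, by 0.32 to 0.33, and overlapped in the 3 among the neighbours, where the differences were 0.01, 0.01 and 0.00. Against Gold embryos they were apart in 6 of 6, from -1.18 for Lcu.2RBY.3g014450 over Lcu.2RBY.3g014420 to 0.55 for Lcu.2RBY.3g014420 over Lcu.2RBY.3g008770. In seed coat M11 against Redmoon was apart in 6 of 6 ratios and M11 against Gold in 3 of 6, those with Lcu.2RBY.3g008770, by 0.28 to 0.36. Ratios of other pairs of genes were not tested, so these counts are not shown to be particular to the vicilin genes. Single genes often differed between lines as well. Between M11 and Gold embryos, 37.1% of all tested genes were called lower and 36.9% higher.

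**Figure D4:**
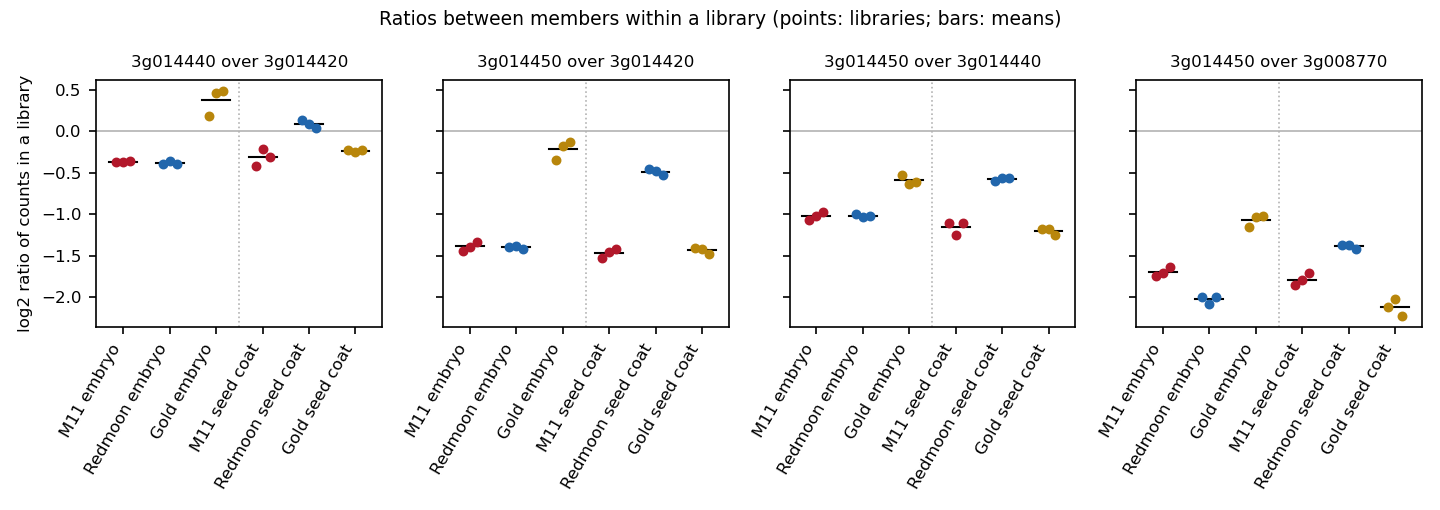
Log2 ratio of the counts of a pair of genes within each library, for 4 of the 6 pairs; points are libraries, coloured by line, and bars are means of 3, with embryos left and seed coats right of the dotted line. Gold embryos and Redmoon seed coats lie above the other 4 groups in each panel, and in the panel over Lcu.2RBY.3g008770 Redmoon embryos and Gold seed coats also lie below M11. The pairs not shown differ. For Lcu.2RBY.3g014420 over Lcu.2RBY.3g008770, Gold embryos (-0.85) and Redmoon seed coats (-0.90) had the lowest means. For Lcu.2RBY.3g014440 over Lcu.2RBY.3g008770, Redmoon seed coats (-0.81) were below M11 embryos (-0.67) and M11 seed coats (-0.64).

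The gene between the neighbours in identifier order, Lcu.2RBY.3g014430, which is not in the study's vicilin list, had the same pattern in an on or off form. It had 185, 194 and 21 counts in Gold embryos, where the last is the shallowest library, and 90, 69 and 131 counts in Redmoon seed coats. In each of the other 12 libraries it had 1 to 9 counts. The 2 groups that held it are those with the shifted ratios. A change of label between tissues was not particular to this stretch, and 116 genes had it by the on or off rule. For Redmoon against Gold, Lcu.2RBY.7g031050 had log2 fold changes of -5.55 in embryo and 6.57 in seed coat. Lcu.2RBY.6g038550 went the other way, with 4.64 and -2.90. A link between Lcu.2RBY.3g014430 and its neighbours was not tested. Between embryos the log2 fold change was -0.45 for M11 against Redmoon, which did not pass the test (edgeR adjusted p = 0.662), -7.50 for M11 against Gold (standard error 0.29, edgeR adjusted p = 8.77e-18) and -7.05 for Redmoon against Gold (0.31, edgeR adjusted p = 5.42e-16). In seed coat it was -4.83 for M11 against Redmoon (0.36, edgeR adjusted p = 1.09e-18), and M11 did not pass the test against Gold (0.12, standard error 0.66, edgeR adjusted p = 0.873). Redmoon against Gold in seed coat stood at 4.95 (standard error 0.26, edgeR adjusted p = 1.04e-25), the reverse of the embryo direction.

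Of 21 genes within 5 places of a member in identifier order, 14 had 0 counts in all 18 libraries, and 3 reached a group mean of 10 TMM-normalized CPM. Beside Lcu.2RBY.3g014430 these were Lcu.2RBY.3g008750 and Lcu.2RBY.3g014500, and no role is given to them. Lcu.2RBY.3g014500 did not follow the vicilin genes, with 381 ± 13.6 in M11 embryos, 330 ± 19.8 in Redmoon embryos and 144 ± 3.18 in Gold embryos (SD, n = 3 each). Its seed coat levels were 336 ± 13.98 in M11, 257 ± 4.61 in Redmoon and 186 ± 1.19 in Gold. Lcu.2RBY.3g008750 was a seed coat gene, with 14.7 ± 0.298 in Redmoon seed coats and at most 0.320 in the mean of any embryo group.

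Between tissues, all 4 genes were far higher in embryo than in seed coat in every line. In M11 the log2 fold change (embryo minus seed coat, fit of all 18 libraries) was 6.37 for Lcu.2RBY.3g008770, 6.38 for Lcu.2RBY.3g014420, 6.33 for Lcu.2RBY.3g014440 and 6.46 for Lcu.2RBY.3g014450, with standard errors of 0.08 to 0.09. The spread over the 4 genes was thus 0.13. All 4 were called (edgeR adjusted p of at most 9.07e-55), where 39.9% of 22081 genes were called higher in embryo and 39.6% lower.

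As labelled, the tissue difference was 5.68 to 6.59 in Redmoon, where 43% of genes were called higher in embryo and 40.9% lower, and 9.05 to 10.3 in Gold, where 39.6% were higher and 40.6% lower. The 4 genes were called in both. The spread over the genes was 0.91 in Redmoon and 1.22 in Gold. Setting Redmoon embryos beside Gold seed coats gave 8.48 to 8.67, a spread of 0.19, and setting Gold embryos beside Redmoon seed coats gave 6.97 to 7.30, a spread of 0.33. The ratios between genes behaved alike. The embryo and seed coat libraries of M11 overlapped in 5 of 6 ratios, with a median distance of 0.07 between the tissue means. Cultivar libraries of the same label overlapped in 0 of 12, with a median distance of 0.54, and those of exchanged labels in 5 of 12, with a median of 0.12. The labels themselves were not tested, and an exchange of labels cannot be told apart here from lines that differ between tissues.

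**Figure D5:**
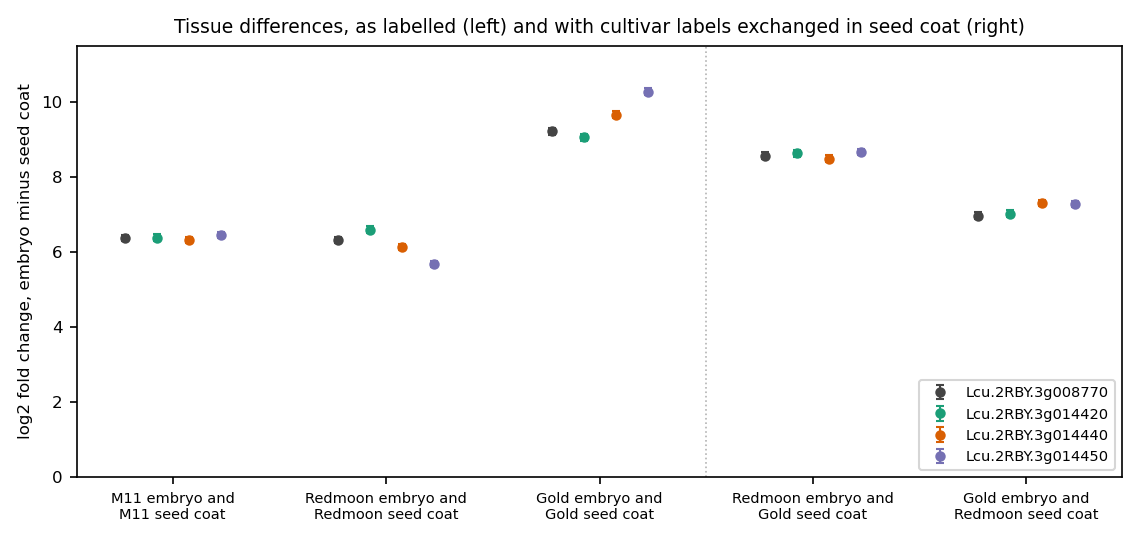
Log2 fold change of embryo minus seed coat for the 4 genes, with points for edgeR estimates and bars for standard errors; left of the dotted line each line as labelled, right of it each cultivar's embryos beside the other label's seed coats. The spread over the 4 genes is 0.13 in M11, 0.91 and 1.22 in the cultivars as labelled and 0.19 and 0.33 with labels exchanged.

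Differences between lines were compared between the tissues by an interaction term in the same fit (embryo difference minus seed coat difference). For M11 against Redmoon, 20.5% of genes were called with a larger value in embryo and 26.7% with a smaller one, and 1 of the 4 vicilin genes was called larger, Lcu.2RBY.3g014450 at 0.78 (standard error 0.10, edgeR adjusted p = 4.90e-10). Lcu.2RBY.3g008770 was at 0.05 (95% interval from -0.14 to 0.24), Lcu.2RBY.3g014420 at -0.21 (-0.41 to -0.01, edgeR adjusted p = 0.0779) and Lcu.2RBY.3g014440 at 0.20 (0.02 to 0.39, edgeR adjusted p = 0.0686). The intervals, unlike these p-values, are not adjusted for the number of genes. Without Redmoon embryo replicate 2 or Redmoon seed coat replicate 3, Lcu.2RBY.3g014420 passed the test at -0.25 in each. Without M11 seed coat replicate 3 or Redmoon embryo replicate 3, Lcu.2RBY.3g014440 passed it at 0.29 and 0.25. For M11 against Gold the values were -2.85, -2.67, -3.33 and -3.81 in numerical order of the genes, all called, where 27.2% of genes were called in that direction and 28.1% in the other. With Redmoon and Gold exchanged in seed coat, M11 against Redmoon gave -2.25 to -2.15 and M11 against Gold -0.97 to -0.60, all 4 genes called in each. Of 22081 genes, 5222 were then called lower and 5141 higher for M11 against Redmoon. For M11 against Gold 5790 were called lower and 4536 higher.

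Redmoon against Gold gave -2.90, -2.46, -3.53 and -4.59 as labelled, all called. In that direction 24.7% of genes were called, and 30.9% in the other. With the labels exchanged it gave 1.60, 1.61, 1.18 and 1.38, all called. Of 22081 genes, 3989 were then called higher and 5184 lower. The direction of this interaction therefore rests on the labels.

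Genes with the most similar pattern were looked for among 22081 genes, by the root mean square difference from the mean profile of the 4 genes over 18 libraries, each gene centred on its own mean of log2 values. The members themselves were at 0.08 to 0.28, which is small in part because the profile is their own mean. Nearest outside the members was another vicilin gene, Lcu.2RBY.6g038570, at 0.24. It had 9770 ± 551 TMM-normalized CPM in M11 embryos, 22573 ± 933 in Redmoon embryos and 52574 ± 5137 in Gold embryos (SD, n = 3 each). The next were Lcu.2RBY.3g068100 at 0.32, the vicilin gene Lcu.2RBY.4g077560 at 0.36, Lcu.2RBY.5g050090 at 0.36 and Lcu.2RBY.4g011510 at 0.37. Lcu.2RBY.3g068100 had 245 ± 9.998 in M11 embryos, 830 ± 22.4 in Redmoon embryos and 2000 ± 178 in Gold embryos. The other 12 vicilin genes ranged in rank from 1 to 12632, the last being Lcu.2RBY.5g065750 at 4.06.

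Vicilin genes share sequence, and how reads that matched several of them were counted is not given in the sources used here, so the value of a single copy is less certain than that of the 4 together.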

How the data were processed

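The authors made paired-end RNA-seq libraries from polyA RNA and deposited the counts of each gene unnormalized, as whole numbers. STAR 2.7.10 is named in the submitters' processing notes. No source used here states the counting tool, or the genome build and annotation behind the counts. The study names a lentil genome assembly for its peptide sequences and refers to earlier work for its RNA-seq analysis. No genome was used. The fits used edgeR 4.0.16 under R 4.3.3 (filterByExpr, TMM, glmQLFit, glmQLFTest), 9 libraries of a tissue for comparisons of lines and all 18 for tissue effects and interactions. An adjusted p under 0.05 was called. Standard errors were worked out from the test, as the absolute log2 fold change over the square root of its F statistic. The 95% intervals are normal intervals from these standard errors. Shares and ratios within a library were compared by exact two-sided permutation tests in Python 3.11.15. Total counts ranged from 3270275 to 24309401 per library, and the members had 708 counts or more in each. All replicate pairs differed by more than sampling noise (chi-square per degree of freedom of 1.53 or more).

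The alternatives were DESeq2's size factors, library totals, totals without the vicilin genes, DESeq2 1.42.0, other filters, other sets of libraries, the replicate block, exchanged cultivar labels, other denominators, 0.5 counts added before ratios, and leaving out each replicate. Likeness used log2 CPM with a prior count of 2. Genes named are the 4 members, vicilin genes that were singled out, genes within 5 identifier places at 10 CPM or more, and the 5 of most similar pattern. The members and lists were chosen with earlier results of these data known. The fits were tried on simulated counts with the same spread for all genes and few genes changed, up and down in equal number. The simulation held no shift in scale like that between these libraries, so it cannot bear on the choice of scaling. Sequences, gene lengths and annotated storage protein lists were not used here.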

Additional observations from a re-analysis of the deposited data

Results flagged for a closer look

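The differences below depended on the tissue by the interaction test (edgeR, all 18 libraries, embryo difference minus seed coat difference, n = 3 per group). Against Gold, M11 changed by -2.85 for Lcu.2RBY.3g008770, -2.67 for Lcu.2RBY.3g014420, -3.33 for Lcu.2RBY.3g014440 and -3.81 for Lcu.2RBY.3g014450. On the scale of this fit all 3 M11 embryo libraries were below all 3 Gold ones for each gene, and all 3 M11 seed coat libraries above all 3 Gold ones for each gene but Lcu.2RBY.3g008770, whose groups overlapped. How often other genes kept these groups apart was not counted. Of all 22081 genes, 27.2% were called lower and 28.1% higher for M11 against Gold. Redmoon against Gold gave -2.90 for Lcu.2RBY.3g008770, -2.46 for Lcu.2RBY.3g014420, -3.53 for Lcu.2RBY.3g014440 and -4.59 for Lcu.2RBY.3g014450, with the sign turned round when the labels were exchanged in seed coat. For that comparison 24.7% of all genes were called lower and 30.9% higher as labelled. Against Redmoon, only Lcu.2RBY.3g014450 of the 4 genes passed the test in M11, at 0.78, where 20.5% of genes were called higher and 26.7% lower. The M11 values rest on the labels too. With labels exchanged in seed coat, M11 against Redmoon gave -2.25 to -2.15 and M11 against Gold -0.97 to -0.60. All 4 genes were then called lower in each, as were 5222 and 5790 of 22081 genes. Groups of 3 libraries are too small for a test of single outlying libraries.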

How the results depend on the processing

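Within a tissue, the calls of the 4 genes kept their direction and number for M11 against each cultivar in both tissues and for Redmoon against Gold in seed coat, under every alternative run and without each replicate in turn (4 called in each). Redmoon against Gold in embryo had 2 genes called lower with library totals or with totals without the vicilin genes, where Lcu.2RBY.3g014420 turned round to 0.16 and 0.13. Of all 18623 genes, 1827 and 1883 were called lower with these scalings, and 12134 and 11904 higher. The interaction of M11 against Redmoon, with 1 gene called higher, had 2 with DESeq2's size factors, totals without the vicilin genes, DESeq2, no filter and at least 10 counts in every library. With library totals it had 4, and Lcu.2RBY.3g014420 turned round to 0.26. The median of all genes then moved to 0.38, with 8546 of 22081 genes called higher and 3156 lower. Measured from the all-gene median of each scaling, Lcu.2RBY.3g014420 was at -0.12 with library totals, beside -0.13 with TMM. The same interaction had 1 to 2 without single replicates, namely 2 without M11 seed coat replicate 3 or Redmoon embryo replicate 3, Lcu.2RBY.3g014440 being added, while Lcu.2RBY.3g014420 passed as lower without Redmoon embryo replicate 2 or Redmoon seed coat replicate 3 (-0.25 in each). With cultivar labels exchanged in seed coat it had 4 genes lower, of which Lcu.2RBY.3g008770 (-2.20), Lcu.2RBY.3g014440 (-2.15) and Lcu.2RBY.3g014450 (-2.21) turned round. Redmoon against Gold then had 4 higher, at 1.60, 1.61, 1.18 and 1.38 in numerical order of the genes. Of all 22081 genes, 5222 were then called lower for M11 against Redmoon and 3989 higher for Redmoon against Gold. Without Lcu.2RBY.6g038550 and Lcu.2RBY.7g031050, the embryo shares of vicilin counts turned round to -0.817, 2.03 and 2.85 percentage points, and in seed coat the difference became 5.59 for M11 against Redmoon, 6.71 for M11 against Gold and 1.12 for Redmoon against Gold, beside 1.93, 10.1 and 8.15 over all 16 genes. The ratios that were apart numbered 29 to 31 without single replicates. With library totals alone the interactions were -2.73 to -1.58 for M11 against Gold and -3.98 to -1.85 for Redmoon against Gold. The medians of all genes then moved to 1.12 and 0.72, and the 4 genes stayed called in each. The cause of these changes was not tested.

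The replicate number as a block changed no call of the 4 genes, for instance 4 of 4 lower in M11 against Gold embryos at -3.35 for Lcu.2RBY.3g014450. Same-numbered libraries did not deviate together (correlations of -0.02 to 0.04 over 27 pairs, 8 of them best with their own number), so the numbers are not taken as pairs. Depth limits low genes in the Gold embryo library of 3270275 counts, where Lcu.2RBY.3g014430 had 21 counts.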

Other observations

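A pair of further genes beside the neighbours was picked out after their values were seen. Lcu.2RBY.3g014410 had 22, 34 and 3 counts in Gold embryos and 0 to 2 counts in every other library. Lcu.2RBY.3g014460 had 7.81 ± 0.986 TMM-normalized CPM in Redmoon seed coats and 4.62 ± 0.792 in Gold embryos (SD, n = 3 each), and between 2.20 and 3.16 in the means of the other 4 groups.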
